A study of Mus musculus with 35 samples.

Results

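The 608 gained H3K4me3 peaks described here are sites in the postnatal mouse retina where the H3K4me3 lists held a peak at P14 and P21 (postnatal days 14 and 21) and none at P0 (the day of birth). They were taken from the 24124 H3K4me3 peaks of wild-type P21 replicate 1. A gained peak overlapped, by at least 1 bp, a peak of P21 replicate 2 and of both P14 lists, and overlapped no peak of either P0 list. Of the 24124 peaks, 16440 were found in all P14 and P21 lists, and 15656 of these overlapped a peak of both P0 lists. Those 15656 are called shared peaks below and serve as the comparison. The gained peaks were thus selected on H3K4me3 peak calls at P0, P14 and P21, and their absence at P0 and presence later are not results.

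H3K4me3 is laid down at the promoters of genes that are active or poised for activity, and wide H3K4me3 domains are known from genes that define a cell's identity. H3K27Ac marks active promoters and enhancers, and H3K27me3 is deposited by the Polycomb repressive complex over silent genes. Brg1 (also called Smarca4) is an ATPase of the SWI/SNF (BAF) complexes, which move and evict nucleosomes. In the mouse retina, rod photoreceptors, bipolar cells and Müller glia are born and mature largely after birth.

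All libraries were made by ChIP-Seq of whole retina. H3K4me3, H3K27Ac and H3K27me3 were profiled in wild-type mice, each with 2 libraries at P0, 2 at P14 and 2 at P21. At P12 there were wild-type retinae (1 library each for H3K4me3 and H3K27Ac, 2 for H3K27me3) and Brg1-deficient retinae, labelled BRG1 -/- (1 library each for H3K4me3 and H3K27me3, 2 for H3K27Ac). Brg1 itself was profiled with an anti-FLAG antibody at P0 in Brg1-FLAG knock-in mice (1 library). The Brg1-deficient retinae came from Chx10-Cre;Brg1 Lox/Lox mice, in which Cre acts in retinal progenitor cells in a mosaic pattern, and mice with small eyes, where Cre was more widely active, were preferred. Some wild-type cells can remain in these samples. The labels name 1 antibody for H3K27me3 at P0, P14 and P21 (AB1) and another at P12 (AB3). The study describes its histone libraries as biological duplicates, and the labels do not say whether these came from separate animals. In whole retina, fewer cells of a type and less of a mark per cell cannot be told apart.

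The H3K4me3 lists held 18534 to 24124 peaks and the H3K27Ac lists 17433 to 50005. H3K27Ac replicate 1 was short at P0, P14 and P21 (17433 to 18718 peaks) beside replicate 2 (29304 to 50005 peaks). A missing peak can therefore mean a weak signal in a short list. The number of reads behind each list is unknown. Coordinates are on mm9, and no gene names or sequences are given because no mm9 annotation or genome was used. For the same reason the labelled tissue was not checked against marker genes.

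The gained peaks lay on all autosomes and on X. They made up from 1.52% of the P21 replicate 1 peaks on chromosome 13 to 3.58% on chromosome 4, and none of the 3 peaks on Y. Their median distance to the nearest P0 H3K4me3 peak was 11831 bp, with a range of 63 to 1157920 bp. No P0 peak lay within 1000 bp of 565 of them, or within 10000 bp of 337. Another gained peak lay within 5000 bp of 79 of them, which fell into 37 runs. The largest run held 4 peaks at chr5:73023502-73036296. At the edge of the rule, 19 further peaks were kept out only by a P0 replicate 1 peak and 157 only by a P0 replicate 2 peak. The P0 peaks that kept them out had median heights of 3.64 and 5.73. Another 138, 55 and 156 peaks were kept out only by P14 replicate 2, P14 replicate 3 and P21 replicate 2, respectively.

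The height of a peak is the fold enrichment over background at its summit, as deposited. In P21 replicate 1 the gained peaks had a median height of 15.2 (range 3.24 to 79.1), against 51.1 for the shared peaks. Their median length was 1747 bp, with a range of 255 to 12910 bp, close to the 1734 bp of the shared peaks. Wide domains made up more of the gained set. Of the gained peaks, 46 (7.57%) were at least 5000 bp long, against 1.79% of the shared peaks. Across the 608 gained peaks, longer peaks had higher scaled P21 heights (Spearman's rho = 0.68), and the heights of P21 replicates 1 and 2 were ranked alike (rho = 0.73). These correlations are descriptions over peaks of the same libraries.

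The gained peaks with the highest mean height over the P14 and P21 lists were mostly wide domains. The highest, chr11:67508240-67517790 (9551 bp), had heights of 44.8 and 42.5 at P14 and 73.2 and 22.7 at P21. The next, chr11:90048861-90051430, had heights of 45.4 and 28.4 at P14 and 64.5 and 33.4 at P21. At both loci P21 replicate 1 was above and P21 replicate 2 below at least 1 P14 library, so unscaled heights did not separate the stages. An 11072 bp domain at chr6:115877735-115888806 had heights of 24.7 and 30.1 at P14 and 69.6 and 18.6 at P21. The others in the top 10 were chr6:119185587-119190857, chr7:52121558-52122635, chr8:13403316-13413347, chr11:3617428-3626228, chr5:108815475-108827998, chr19:27396577-27403552 and chr19:4135769-4142737. The peak at chr7:52121558-52122635 lay 90 bp from a P0 peak, and its heights in every list but P21 replicate 1 belonged to peaks with a summit outside it. Such displaced summits were rare. In each other list at P12, P14 and P21, they accounted for 2.63% to 4.05% of the gained peaks with a peak. The widest gained peak was chr18:66117765-66130674 (12910 bp), followed by chr5:108815475-108827998 (12524 bp) and chr4:154895411-154906618 (11208 bp).

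After scaling to the shared peaks, H3K4me3 height at the gained sites was lowest at P12 and highest at P21. The scaled median was 6.02 in wild-type P12, 8.21 and 7.88 in the P14 lists, and 10.4 and 11.5 in the P21 lists. Both scaled P21 medians lay above both scaled P14 medians. This order depends on the scaling. As deposited, the medians were 8.37 in wild-type P12, 6.90 and 6.81 in the P14 lists, and 15.2 and 6.64 in P21 replicates 1 and 2. Of the 593 gained peaks present in wild-type P12, 504 had a higher scaled mean at P14 than at P12. The same held for 53.4% of 15536 shared peaks. The rule required a peak in both P14 lists but not at P12, and P12 had 1 library, so this is a description. The P14 and P21 lists, with P21 replicate 1 as the start, also served to choose the gained peaks, and sites absent at P0 can be ones that gain height with age. The comparisons of P21 with P14 that follow are therefore descriptions. Both scaled P21 heights exceeded both scaled P14 heights at 303 of the 608 gained peaks and were below both at 23. The same held for 14.1% and 21.4%, respectively, of all 16440 peaks found in the P14 and P21 lists. In a limma fit over 15908 regions, 0 regions had an adjusted p under 0.05 (0% in either direction), and the lowest adjusted p was 0.393. At an unadjusted p under 0.05, 46 gained peaks were higher at P21 and 2 lower. Of all 15908 regions, 1127 passed that limit in either direction. Of these, 385 (2.42% of all regions) were higher and the rest were lower. The median fitted difference on the log2(height + 6.12) scale was 0.23 for the gained peaks and -0.04 for all regions.

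**Figure D1:**
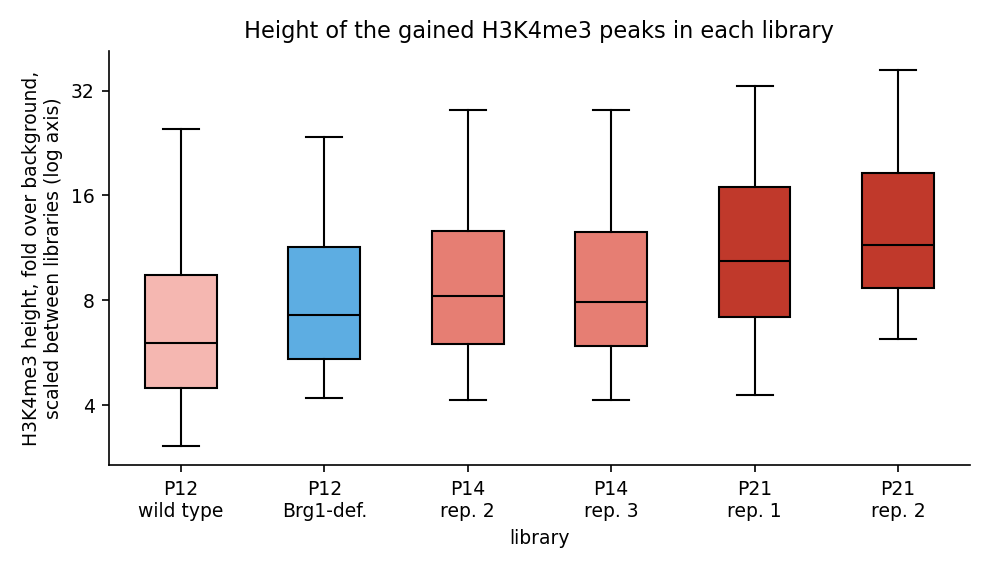
H3K4me3 height of the gained peaks in each library (fold over background scaled on the shared peaks, log axis), with boxes for the quartiles, a line for the median and whiskers from the 5th to the 95th percentile. The scaled medians go from 6.02 in wild-type P12 to 10.4 and 11.5 at P21, an order that depends on the scaling. P0 is absent because no gained peak has a P0 height.

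The gained peaks are low, so they were also set beside shared peaks of the same height classes. In 4 height classes cut at the quartiles of the gained peaks, the median log2 ratio of P21 to P14 was 0.34, 0.47, 0.49 and 0.38 for the gained peaks. For the shared peaks of those classes it was -0.11, -0.25, -0.27 and -0.04. The highest class has no upper limit, so its heights were not matched. It held 152 gained peaks with mean scaled heights up to 47.6 and 12497 shared peaks with heights up to 81.1. From lowest to highest class, 77.0%, 84.2%, 83.6% and 82.2% of the gained peaks were higher at P21. The corresponding shares of the shared peaks were 41.1%, 30.6%, 28.1% and 45.6%. With 2 libraries per stage and 0 regions called, no single site is shown to change.

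**Figure D2:**
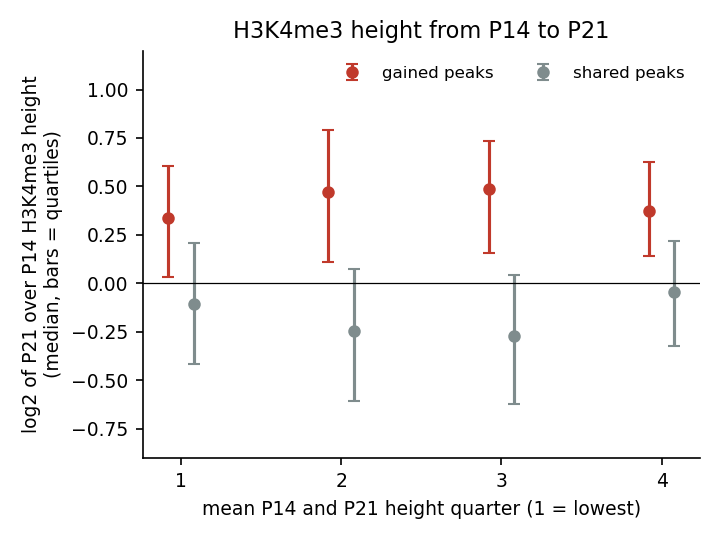
Median log2 ratio of scaled H3K4me3 height at P21 to P14 (points) with quartiles (bars) for gained and shared peaks in 4 classes of mean height. The gained medians lie between 0.34 and 0.49 and the shared medians between -0.27 and -0.04.

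Of the 608 gained peaks, 243 overlapped a Brg1 peak at P0 (40.0%, Wilson 95% interval 36.1 to 43.9). Among the shared peaks, which were chosen for having H3K4me3 at P0, the share was 80.6%. Among the 176 later peaks that overlapped a peak of only 1 P0 list, it was 46.6% (interval 39.4 to 54.0). The interval of those 176 overlapped that of the gained peaks. Shared peaks are higher, and their Brg1 share followed their P21 height. It was 47.1%, 59.9%, 70.3% and 88.9% in the 4 height classes of the gained peaks. The gained peaks showed no such gradient, with 34.9%, 43.4%, 39.5% and 42.1%. In each class the intervals of the gained and shared peaks did not overlap. The gap was smaller when wild-type P12 height set the classes. The Brg1 shares were then 36.5%, 42.9%, 40.3% and 41.6% for gained peaks and 44.4%, 47.8%, 51.1% and 83.5% for shared peaks. The intervals overlapped in the 3 lower classes. With either height, the highest class has no upper limit and was not matched in height. It held 11273 shared peaks by P21 height and 14328 by P12 height. The gained peaks without a Brg1 peak lay a median of 11451 bp from the nearest one. Brg1 peaks over gained sites had a median height of 4.78, against 5.91 over shared peaks. Intervals here cover counting error only, and the Brg1 value rests on 1 library.

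The highest Brg1 peak over a gained site (height 17.7) was at chr8:87337872-87339576, where H3K4me3 was modest, at 6.91 and 9.33 at P14 and 11.4 and 4.002 at P21. The next were chr15:97822946-97824089 (13.6), chr2:165707643-165709216 (13.5), chr4:45215385-45222687 (12.8) and chr8:122948694-122952316 (12.6). Only the fourth of these was a wide domain, at 7303 bp, with H3K4me3 heights of 18.1 and 28.7 at P14 and 57.9 and 19.5 at P21. Over the 243 sites with Brg1, the Brg1 height and the scaled P21 H3K4me3 height were weakly and inversely related (rho = -0.14).

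Brg1 occupancy at P0 went with H3K27Ac at P0. Of the 128 gained peaks with H3K27Ac in either P0 list, 112 had Brg1 (87.5%, interval 80.7 to 92.2). Of the 480 without, 131 did (27.3%, interval 23.5 to 31.4). Nearly as many gained peaks as not, 301 of 608, had no Brg1, H3K27Ac or H3K27me3 in any P0 list. A further 101 had Brg1 alone, 110 had Brg1 with H3K27Ac, 16 had H3K27Ac alone, 30 had Brg1 with H3K27me3, and 48 had H3K27me3 alone. The sites with none of the 3 had a median H3K4me3 height of 8.89 over the P14 and P21 lists, and those with Brg1 and H3K27Ac had 8.44.

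**Figure D3:**
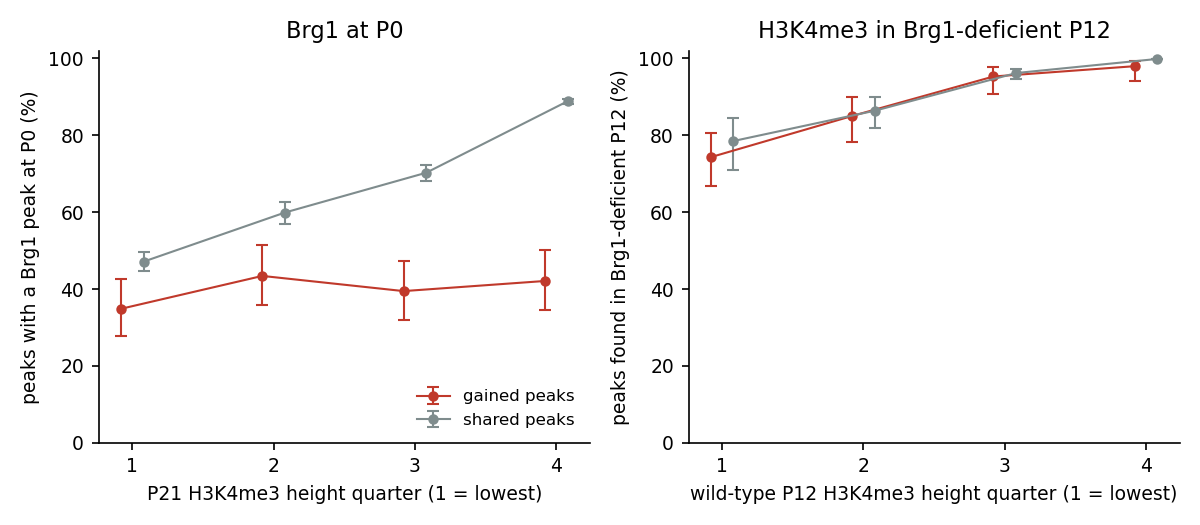
Share of gained and shared peaks with a Brg1 peak at P0, by P21 H3K4me3 height class (left), and share with an H3K4me3 peak in Brg1-deficient P12 retina, by wild-type P12 height class (right). Bars are Wilson 95% intervals. The Brg1 share of gained peaks stays between 34.9% and 43.4% while that of shared peaks reaches 88.9%, and the shares on the right run from 74.3% to 98.0% for gained peaks beside 78.5% to 99.9% for shared peaks.

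H3K27Ac appeared at most gained sites after birth. The rule did not use this mark, but it and H3K4me3 both occur at active promoters. Choosing gained sites without H3K4me3 at P0, and shared peaks with it, can therefore favour this direction. How far it does was not tested. H3K27Ac covered 5.26% and 20.9% of the gained peaks in the P0 lists. It covered 91.9% in wild-type P12, 81.4% and 94.2% at P14, and 86.0% and 93.6% at P21. The P0 libraries and the later ones did not overlap. The mean share was 13.1% ± 11.0 at P0 (SD, n = 2) and 88.8% ± 6.19 at P14 and P21 (SD, n = 4). An exact two-sided permutation test over libraries gave p = 0.0667, the smallest that 2 against 4 libraries allow, so this design cannot pass 0.05. The shared peaks went from 80.2% ± 9.29 to 68.3% ± 22.5, with an exact permutation p = 0.600. With the 17433 strongest peaks of every list, the means differed by 76.2 percentage points, against 75.7 with all peaks.

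Acetylation was shared widely among the gained peaks. At 484 sites H3K27Ac was found in all 4 P14 and P21 lists, and at 27 in none of them. The 27 were short, with a median of 686 bp, and 5 had Brg1 at P0. All 46 domains of at least 5000 bp had H3K27Ac in both P21 lists. Of the 280 shared peaks of that length, 96.1% and 98.9% had it in those lists, so this was common to long peaks. At P0 the H3K27Ac share of the 46 gained domains was 4.35% and 30.4%, against 90.0% and 97.1% of the 280. The highest domain, at chr11:67508240-67517790, had no H3K27Ac peak in either P0 list. Its H3K27Ac heights were 12.9 in wild-type P12, 13.9 and 28.5 at P14, and 16.7 and 13.6 at P21. Sites with Brg1 at P0 had more acetylation already at P0, and also later. In P0 replicate 2, 45.7% of them had an H3K27Ac peak, against 4.38% of the sites without Brg1. In the Brg1-deficient P12 lists the shares were 96.7% and 97.5% against 83.0% and 87.7%. At P21 they were 91.8% and 97.9% against 82.2% and 90.7%, and the median P21 heights were 10.8 and 10.04 against 9.39 and 8.26. These groups were not compared by a test, since the peaks of 1 library are not replicates.

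H3K27Ac heights were compared in a limma fit over 33340 regions with a peak in at least 2 of the 6 libraries. No region had an adjusted p under 0.05 at P14 or at P21 against P0 (0% in either direction). The lowest adjusted p at P21 was 0.0504, and 356 gained peaks had an adjusted p of at most 0.06, as did 4993 of the 33340 regions (15%). The count therefore rests on the setting. With a pseudocount of 2 in place of 2.46, 315 gained peaks were called higher at P21 and 0 lower. Of all 33340 regions, 8.66% were called higher and 973 were called lower. At an unadjusted p under 0.05, 403 gained peaks were higher at P14, against 10.3% of all regions, and 458 at P21, against 18.9%. Only 563 gained peaks passed the filter, most of them through the P14 and P21 libraries alone, so these counts are a description. In the 6394 regions that all 6 libraries held, which 67 gained peaks reached, 14 gained peaks were called higher at P21 and 4 at P14. H3K27Ac peaks of both P0 lists overlapped only 31 gained peaks. Some of the 67 therefore took a P0 height from elsewhere in the merged region, outside the gained peak. Of all such regions, 148 (2.31%) were called higher at P21 and 54 (0.845%) at P14. In that fit the median difference of the 67 was 0.72 at P21 on the log2 scale, and that of all its regions was 0.00.

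The site with the largest fitted H3K27Ac difference from P0 to P21 among gained peaks, chosen after the values were seen, was chr11:120310762-120315806. It had no H3K27Ac peak in either P0 list, so its fitted difference depends on the pseudocount and is not given, and its heights were 28.5 and 20.8 at P14 and 30.2 and 17.5 at P21. In the other direction, chr15:97822946-97824089 had heights of 7.73 and 13.0 at P0, and none and 5.21 at P21. It also had the next-to-highest Brg1 peak of the gained sites.

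**Figure D4:**
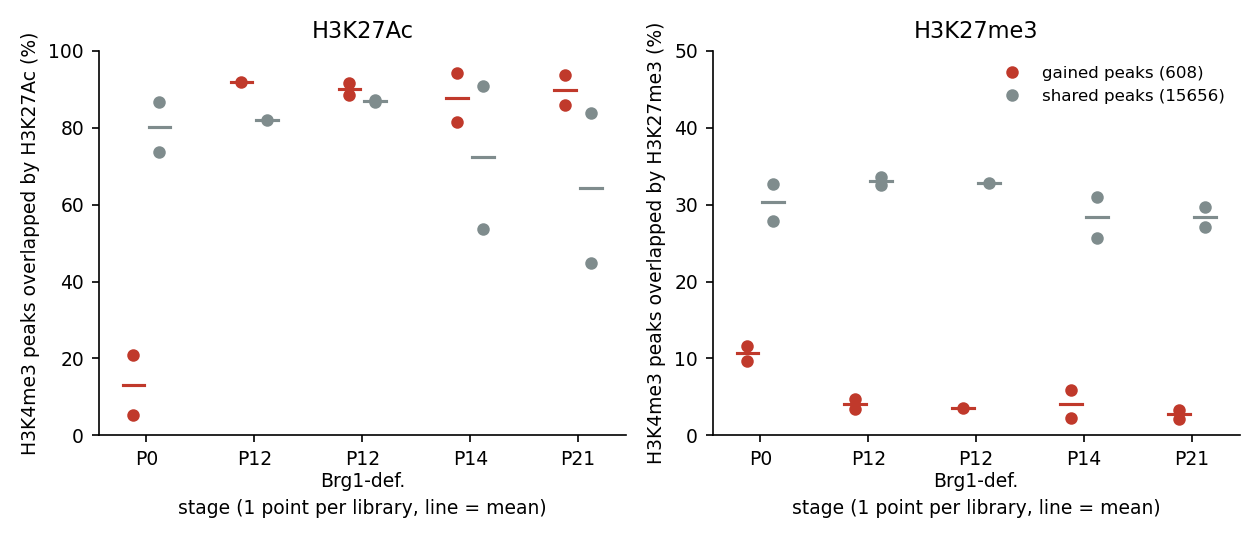
Share of the 608 gained and 15656 shared H3K4me3 peaks overlapped by H3K27Ac (left, axis to 100%) and H3K27me3 (right, axis to 50%), with 1 point per library and a line for the mean of each group. H3K27Ac covers 5.26% and 20.9% of the gained peaks at P0 and 81.4% or more at every later age, and H3K27me3 covers 9.70% and 11.7% at P0 and 5.92% or less later.

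H3K27me3 was uncommon at the gained sites and less common in the P14 and P21 lists than at P0. It covered 9.70% and 11.7% of them at P0, 2.30% and 5.92% at P14, and 2.14% and 3.29% at P21. The P0 libraries lay above all later ones. The mean was 10.7% ± 1.40 at P0 (SD, n = 2) and 3.41% ± 1.75 at P14 and P21 (SD, n = 4), with an exact two-sided permutation p = 0.0667, again the smallest possible. The shared peaks were at 30.3% and 28.4% (exact permutation p = 0.533). At P12, with the other antibody, the shares were 4.77% and 3.45% in wild-type and 3.62% in Brg1-deficient retinae.

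An H3K27me3 island lay over 50 of the gained peaks in both P0 lists, and 23 of these had Brg1. None of the 50 had H3K27Ac in a P0 list. By P21, 40 had no island left in either list, and 35 of these 40 had H3K27Ac in both P21 lists. The other 10 kept an island in at least 1 P21 list, and 1 of them had H3K27Ac in both. In wild-type P12 the 50 sites had an island in 18 and 17 cases and H3K27Ac in 43. In Brg1-deficient P12, 16 had an island and 41 and 43 had H3K27Ac.

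Among the 40 sites with no island left at P21, the highest by later H3K4me3 was chr5:108815475-108827998, with island values of 1942 and 2993 at P0 and none at P12, P14 or P21. An island value is the number deposited with each H3K27me3 island, and whether it is a read count or a SICER score is not given in the sources used here. At chr1:74894822-74899208 the values in the same P0 libraries were higher, at 9280 and 14795, and no island was called at P14 or P21. Its H3K4me3 heights were 21.2 and 23.4 at P14 and 52.0 and 24.3 at P21. At chr17:47521483-47526585 the island values were 59 and 82 at P0 and 2005 and 3482 at P14, with no island at P21, and both P14 H3K4me3 lists held a peak there (34.1 and 15.8). These values are not scaled between libraries, so those of different ages are given side by side and were not compared. The other 2 sites of the top 5 were chr9:64790289-64800995 and chr7:53073539-53081074, each with an island in P12 lists of both genotypes and none at P21.

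In the P12 lists, which were not used to choose the sites, 593 gained peaks were found in wild-type retinae (97.5%, interval 96.0 to 98.5) and 530 in Brg1-deficient retinae (87.2%, interval 84.3 to 89.6). Both lists held 523, wild type alone 70, Brg1-deficient alone 7, and neither 8. Each genotype had 1 library, so genotypes and libraries cannot be told apart and no test was made. The Brg1-deficient list was shorter. With the 19495 strongest peaks of each list, the shares were 88.3% in wild-type and 87.2% in Brg1-deficient retinae. Detection also went with height. In 4 classes of wild-type P12 height, 74.3%, 85.0%, 95.3% and 98.0% of the gained peaks were found in Brg1-deficient retinae. For shared peaks of the same classes the shares were 78.5%, 86.4%, 96.2% and 99.9%. These lay within the gained peaks' intervals in the 3 lower classes and above it in the highest. That class has no upper limit and held 14328 shared peaks, so heights there were not matched. With classes set by P21 height instead, the gap was wide. The shares were then 67.1%, 87.5%, 96.1% and 98.0% for gained peaks and 93.4%, 98.5%, 99.9% and 100% for shared peaks, whose P12 heights in those classes were not matched to those of the gained peaks.

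Detection in Brg1-deficient P12 retinae was close for gained peaks with and without Brg1 at P0, and the intervals overlapped. Of the gained peaks with Brg1 at P0, 85.6% were found (interval 80.6 to 89.5), and of those without, 88.2% (interval 84.5 to 91.1). Of the 547 gained peaks with both H3K4me3 and H3K27Ac in wild-type P12, 473 (86.5%) had both marks in Brg1-deficient P12 and 4 had neither.

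Where both P12 lists held a peak, the scaled H3K4me3 ratio of Brg1-deficient to wild type had a median of 0.24 on the log2 scale over 511 gained peaks, and it was -0.42 without scaling, so its direction depends on the scaling. The shared peaks had a scaled median of 0.07. Of the 511, 44 were at least 2-fold higher in Brg1-deficient retinae (8.61%, against 3.47% of all regions) and 7 at least 2-fold lower (1.37%, against 2.17%). Without scaling, an alternative chosen after seeing the data, 4 were higher (0.78%, against 0.11%) and 61 lower (11.9%, against 18.8%). On both scales the gained peaks had a larger share of higher and a smaller share of lower ratios than all regions. Regions with a peak in 1 P12 list alone have no ratio here. Of the gained peaks, 70 were found in wild type alone and 7 in Brg1-deficient retinae alone. With regions of either list and a pseudocount, the scaled median of the gained peaks was 0.125. In 4 classes of mean P12 height the scaled medians were 0.44, 0.32, 0.22 and 0.17 for gained peaks and 0.20, -0.05, -0.09 and 0.08 for shared peaks. The scaled median was 0.19 for gained peaks with Brg1 at P0 and 0.28 for those without. The 2 wild-type P14 libraries gave scaled medians of 0.46 and 0.47 against the same wild-type P12 library. Without scaling these were -0.24 and -0.22, nearer to 0 than the -0.42 between the P12 genotypes, so which difference is the larger also depends on the scaling.

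For H3K27Ac at P12 the scaled median ratio over 524 gained peaks was -0.27 in Brg1-deficient replicate 1 and -0.14 in replicate 2, against 0.18 and 0.09 at shared peaks. Without scaling the gained medians were -0.16 and 0.03, so the direction in replicate 2 depends on the scaling. The scaled medians of H3K4me3 and H3K27Ac had opposite signs at the gained sites, and without scaling those of H3K4me3 and H3K27Ac replicate 1 were both below 0. In replicate 1, after scaling, 36 gained peaks were at least 2-fold lower (6.87%, against 2.46% of all regions) and 1 at least 2-fold higher (0.19%, against 3.25%). In replicate 2 the counts were 21 lower (4.01%, against 2.56%) and 3 higher (0.57%, against 2.69%). The 2 Brg1-deficient libraries themselves differed by a median of 0.14 at the gained sites. There was 1 wild-type library, so this was not tested.

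**Figure D5:**
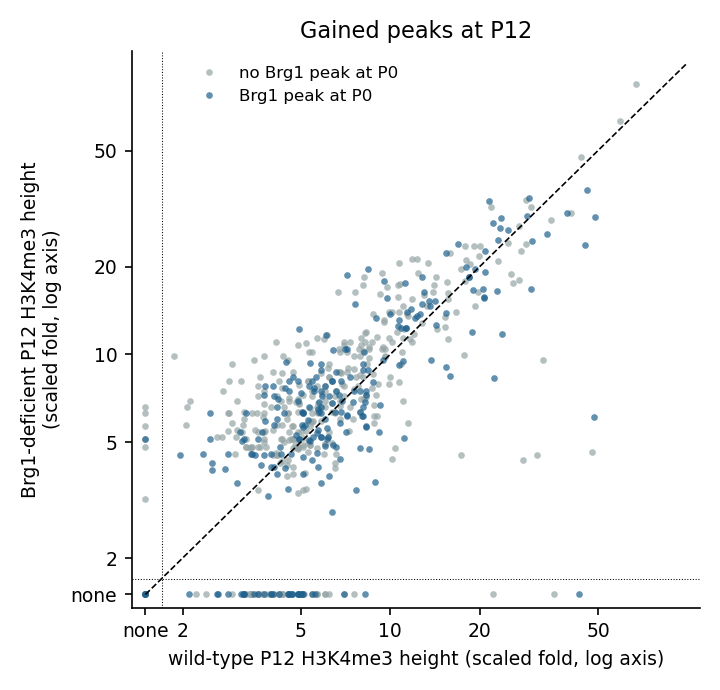
Scaled H3K4me3 height of each gained peak in wild-type (horizontal) and Brg1-deficient (vertical) P12 retinae, both on log axes, coloured by the presence of a Brg1 peak at P0. Points on the margin marked none had no peak in that list, which was the case for 70 sites with a wild-type peak alone and 7 with a Brg1-deficient peak alone, and the dashed line marks equal heights. The 6 points farthest below that line have a wild-type summit outside the gained peak.

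The gained peaks absent from Brg1-deficient P12 were weak in wild type, with a median height of 5.96 against 8.86 for those found in both. Of the 70, 67 had their wild-type summit inside the gained peak, and 3 of these had a height of at least 10. These 3 were singled out after their values were seen. The domain at chr9:105371937-105378577 (6641 bp) stood apart. Its H3K4me3 height was 30.8 in wild-type P12, 19.0 and 28.3 at P14, and 46.0 and 12.4 at P21, and it had no peak in the Brg1-deficient list. It was the only one of the 46 domains of at least 5000 bp without one. H3K27Ac at this site was 8.66 in wild-type P12, 6.06 and 5.94 in the Brg1-deficient libraries, 13.3 and 17.4 at P14, and 12.2 and 12.2 at P21. No Brg1 peak lay within 18168 bp of it at P0. The others were chr5:147226156-147229580, with a wild-type P12 height of 11.4 and a Brg1 peak of 6.79 at P0, and chr8:47588007-47588490, with a wild-type P12 height of 10.5 and no Brg1 peak. Both kept H3K27Ac in both Brg1-deficient libraries.

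The P12 height ratios were taken over merged regions, so that a peak divided differently in the P12 lists was compared whole. Among sites with both peaks, the lowest scaled ratio of Brg1-deficient to wild type was 0.38 at chr4:132606482-132609257, where the deposited heights were 31.0 in wild type and 7.48 in Brg1-deficient retinae and Brg1 had a peak of 9.28 at P0. The next 4 were chr1:64124951-64125815, chr3:138441872-138442894, chr14:49357672-49359212 and chr10:80863168-80865372, with ratios of 0.42 to 0.46, and 3 of these 4 had Brg1. The highest ratio was 5.40 at chr7:120490387-120491452, with heights of 2.61 in wild type and 8.91 in Brg1-deficient retinae. At the same site the P14 heights were 6.004 and 7.98. It was followed by chr18:34601271-34601640, chr9:40160205-40162199, chr13:23983752-23985549 and chr8:37671460-37672783, with ratios of 2.89 to 3.34. None of these 5 had a Brg1 peak at P0. Of all 511 gained peaks with a ratio, 203 had one. A relation of Brg1 to the ratio was not tested. Ratios of the heights at the gained peak alone were lower than at any listed site at 6 others, from 0.097 to 0.29, and at all 6 the wild-type height belonged to a summit outside the gained peak. All 10 listed ratios compare 1 library with 1 other and have no replicate check.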

How the data were processed

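ChIP-Seq peak lists of 27 libraries were analysed as deposited, and each list was called on 1 library. Per the submitters' processing notes, BWA 0.5.9-r26, Picard 1.65, MACS2 2.0.9, SICER 1.1, bedtools 2.17.0 and the mm9 build were used. The narrowPeak lists deposited by the authors give the fold enrichment at the summit (a ratio, used as height), −log10 of the p-value (not used) and of the q-value (used to rank peaks), and a score that was not used. The deposited H3K27me3 lists give islands with a whole number, taken as a score, whose definition is not given in the sources used here. Members and comparison sets were chosen with earlier results of these data known, and no gene list was applied because no mm9 annotation was used.

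Overlaps of at least 1 bp were computed with Python 3.11.15, numpy 2.4.6, pandas 2.3.3 and scipy 1.17.1, and bedtools 2.31.1 returned the same 608 members (0 different). The overlap rules and the limma fit were tested on simulated data. Shares carry Wilson 95% intervals. Overlapping peaks of a mark were merged into regions, each given its highest height per library (0 where none), scaled to equal medians over regions with a peak in every library. The limma 3.58.1 package (R 4.3.3) then compared log2(height + pseudocount) between stages, with all libraries of the stages in 1 fit, Benjamini-Hochberg adjustment at 0.05, and pseudocounts at the 5th percentile (2.46 for H3K27Ac, 6.12 for H3K4me3). H3K27Ac regions needed a peak in 2 of 6 libraries and H3K4me3 regions in all 4. A gained peak took the value of the region it overlapped most. Ratios at P12 used regions with a peak in every library compared. Sites named in the text were the 10 highest by mean P14 and P21 H3K4me3, the 5 longest, the 5 with the highest Brg1, the 5 highest and 5 lowest P12 ratios, and the top 5 with H3K27me3 in both P0 lists and none at P21. The 5 largest called H3K27Ac changes were to be named too, but 0 were called. Sites outside these rules are marked as chosen after their values were seen. Replicate numbers follow the sample titles, so H3K4me3 has replicates 2 and 3 at P14, where the names of the deposited lists have 1 and 2. Figures were drawn with matplotlib 3.10.9.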

Additional observations from a re-analysis of the deposited data

How the results depend on the processing

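Of 108 recomputed values, 72 were counted as the same as the main value, 35 as moved and 1 as reversed. Being counted as the same did not always mean a change smaller than the replicate spread. Values of 565 to 765 for the number of gained peaks were counted as the same. The shares with Brg1 and with H3K4me3 at P12 rest on 1 library per group and have no replicate spread. Those counted as the same lay inside the Wilson interval of the main share. The main number of gained peaks was 608. It was 177 with the top 50% of every H3K4me3 list and 913 starting from P21 replicate 2, of which 690 overlapped a gained peak from replicate 1 and 223 did not, and 627 to 765 when any 1 library other than P21 replicate 1 was left out. The Brg1 share was 26.3% with the top 50% of Brg1 peaks. The P12 shares fell to 6.74% (wild-type) and 2.80% (Brg1-deficient) with the top 50% of the P12 lists, and the wild-type share was 88.3% with equal lists, an alternative chosen after seeing the data.

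A stage's share here counts peaks present in both replicates, which gave 5.10%, 81.2% and 85.5% for H3K27Ac and 8.22%, 2.30% and 1.97% for H3K27me3 at P0, P14 and P21. With either replicate H3K27Ac was found at 21.1%, 94.4% and 94.1% (P0, P14, P21) and H3K27me3 at 13.2%, 5.92% and 3.45%. With 1 replicate left out, H3K27Ac ranged over 5.26% to 20.9%, 81.4% to 94.2% and 86.0% to 93.6%, and H3K27me3 over 9.70% to 11.7%, 2.30% to 5.92% and 2.14% to 3.29%, and over 3.45% to 4.77% in wild-type P12. With the top 50% of H3K27Ac peaks the shares were 64.1% at P14 and 76.3% at P21, and with equal lists 78.9% at P21. H3K27me3 at P0 was 6.74% with 50% coverage and also with the top 50% of islands. The differences of mean shares from P0 to P14 and P21 ranged over 67.9 to 83.6 percentage points for H3K27Ac and -8.26 to -6.29 for H3K27me3 when any 1 library was left out.

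For H3K27Ac heights the main fit called 0 gained peaks higher. At P21 the count was 321 with pseudocount 1, 315 with pseudocount 2 (chosen after seeing the data), 14 in regions with a peak in every library, 319 with no filter and 354 with only the stages compared, and 0 to 352 when any 1 library was left out (352 without P14 replicate 2, 298 without P21 replicate 2). At P14 it was 249 with pseudocount 1 and 4 in regions with a peak in every library. With replicate number as a block it was 407 at P21 and 0 at P14. Other regions were called in the same fits. Over all 33340 regions at P21, 3225 were called higher and 1315 lower with pseudocount 1, and 4997 and 1607 with the block. With no filter these were 1903 and 191 of 64281, and with only the stages compared 5208 and 1939 of 22915. At P14 with pseudocount 1 they were 1695 and 1112 of 33340. Most gained peaks passed the main filter through the P14 and P21 libraries alone, so these counts are a description. The log2 height difference of replicate 1 from replicate 2 was correlated between stages over 33340 regions. It gave r = 0.078 for P0 and P14, 0.015 for P0 and P21, and 0.447 for P14 and P21. The main fit used no block, and whether same-numbered libraries share more than a number was not tested. The cause of these differences in calls was not tested. For H3K4me3 at P21 against P14, all alternatives called 0, and no paired analysis was possible because the stages share only replicate number 2 in the sample titles. The deposited lists are named replicates 1 and 2 at P14, and a pairing by those names was not tried. Unscaled, the P12 H3K4me3 ratio had a median of -0.42. List length and unknown read depth limit every absence of a peak.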
